A study of Homo sapiens with 3 samples.

Results

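Signals of SAMD9, SAMD9L, DDX60 and DDX60L, which form a pair of neighbouring paralogues on chromosome 7 and another on chromosome 4, were compared on 3 oligonucleotide arrays of human KYSE180 cells, a line from squamous carcinoma of the oesophagus. The 4 genes, of 18132 measured, were found by exact gene symbol and had 7 probe sets, the groups of short probes whose signals are summarised to a single value. They were chosen by the measured values themselves, because both transfected arrays lay above the control array for these genes, so the differences from control below are a description and support nothing. The difference between the transfected arrays was not named in that choice, but both of these arrays entered it. Earlier results of these data were also known, so this difference is not an independent readout either.

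The groups were vector, siRNA and control KYSE180 cells. Vector cells were transfected for 48 h with a vector for HOTAIR, a long non-coding RNA, using Polyfect. The siRNA cells were transfected for 48 h with 100 pmol of a mixture of siRNAs against HOTAIR, using Lipofectamine2000. No time is given for the control cells. Each group had 1 array, so nothing below could be checked against replicates or tested, and p-values are left out. Reagent and cargo changed together between the arms, and what the control cells received is labelled only as control. The source name of the siRNA sample reads as a HOTAIR line, whereas its title and cell line field give KYSE180. HOTAIR itself had 0 probe sets under its symbol in the annotation used, so neither arm was checked by its target. Of 10 listed markers of squamous or general epithelium, the 7 measured lay above the median signal on each array. None of the 8 fibroblast markers did, and of 9 leukocyte markers 1 did in vector, 0 did in siRNA and 2 did in control cells. Signals are on the log2 scale, and quartiles were 3.58 and 7.55 for the vector array, 3.62 and 7.48 for the siRNA array and 3.72 and 7.35 for the control array.

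SAMD9 and SAMD9L encode large cytosolic proteins with a sterile alpha motif. They restrict poxviruses, slow cell growth and shut down protein synthesis when active. DDX60 and DDX60L encode DExD/H-box proteins related to the SKI2 family of RNA helicases. DDX60 has been described as a partner of the cytosolic RNA sensor RIG-I, although its need in that pathway is disputed, and DDX60L has been described as an antiviral factor. Transcription of all 4 genes can be induced by interferon, whose receptors activate a complex with IRF9 that binds a sequence called the interferon-stimulated response element (ISRE).

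Because the members lay high on the same array, the 250 bases upstream of each start in RefSeq (GRCh38.p14, minus strand in all 4) are shown 5′ to 3′. Capitals mark matches to an ISRE core (GAAANNGAAA) or to a 9-base core (AACNGAAAC), each searched on both strands.
SAMD9 (chr7:93117980-93118229): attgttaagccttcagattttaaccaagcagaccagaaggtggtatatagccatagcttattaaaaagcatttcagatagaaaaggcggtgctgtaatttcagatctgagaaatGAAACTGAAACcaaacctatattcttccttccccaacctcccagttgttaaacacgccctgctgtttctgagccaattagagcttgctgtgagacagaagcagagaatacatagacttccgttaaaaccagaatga
SAMD9L (chr7:93148386-93148635): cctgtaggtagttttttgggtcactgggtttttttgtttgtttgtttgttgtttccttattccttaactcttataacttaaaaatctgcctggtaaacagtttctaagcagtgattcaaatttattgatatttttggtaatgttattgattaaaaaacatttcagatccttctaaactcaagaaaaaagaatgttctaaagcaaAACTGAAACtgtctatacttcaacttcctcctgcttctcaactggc
DDX60 (chr4:168318753-168319002): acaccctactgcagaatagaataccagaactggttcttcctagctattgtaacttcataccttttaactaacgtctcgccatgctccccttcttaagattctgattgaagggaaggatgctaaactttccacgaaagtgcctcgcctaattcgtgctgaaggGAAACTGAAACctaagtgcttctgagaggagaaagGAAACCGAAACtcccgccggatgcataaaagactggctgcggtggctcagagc
DDX60L (chr4:168480493-168480742): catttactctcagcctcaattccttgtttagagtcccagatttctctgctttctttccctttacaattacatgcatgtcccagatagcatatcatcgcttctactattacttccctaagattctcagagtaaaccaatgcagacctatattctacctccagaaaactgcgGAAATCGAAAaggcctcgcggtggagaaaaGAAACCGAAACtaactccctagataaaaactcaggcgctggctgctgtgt

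DDX60 and DDX60L each held 2 ISRE cores and SAMD9 held 1, while these letters did not occur in the window of SAMD9L. The cores began 88 and 53 bases upstream of the start in DDX60, 80 and 50 bases upstream in DDX60L, and 136 bases upstream in SAMD9. Of 35116 promoter windows in the same RefSeq table, which reach from 250 bases before to 50 bases past each start, 3.57% held at least 1 ISRE core and 0.259% held 2 or more. The 9-base core was chosen after these sequences had been read, so its presence in all 4 genes supports nothing. It was found in 1.11% of all windows. It lay 46 bases upstream of the start in SAMD9L, and in the other genes it overlapped an ISRE core, at 134 bases in SAMD9, at 86 and 51 bases in DDX60 and at 48 bases in DDX60L. The RefSeq start used for DDX60 lies inside the annotated gene and not at its outermost end. A match describes letters and does not show that a factor binds there.

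**Figure D1:**
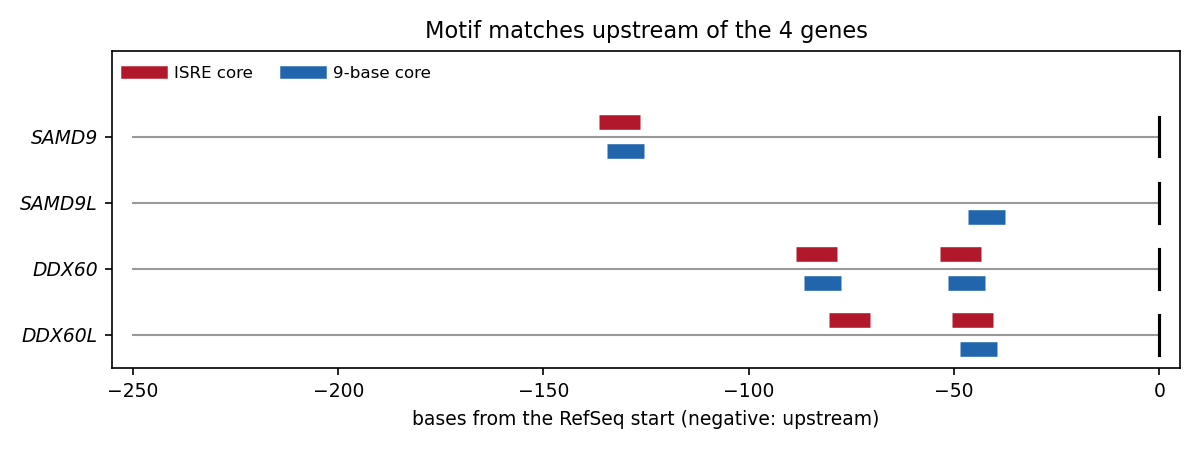
Positions of motif matches upstream of the 4 genes, in bases from the RefSeq start (black line at 0). Red bars are ISRE cores and blue bars the 9-base core. SAMD9L is the row without a red bar.

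DDX60 and SAMD9 showed the larger vector differences, and their neighbouring paralogues the smaller ones. DDX60 had 1 probe set, with signals of 10.18 in vector, 6.10 in siRNA and 4.31 in control cells. The vector signal was thus among the brighter ones of that array (percentile 94.0), the siRNA signal somewhat above the middle of its array (percentile 60.6) and the control signal below the middle (percentile 35.5). DDX60 was higher than control by 5.87 (log2, 58.7-fold) in vector cells and by 1.79 (3.47-fold) in siRNA cells. Its vector minus siRNA difference was 4.08 (16.9-fold). Control signals of all 4 genes were dim, where RMA, the method that summarised the probes, compresses differences, so folds over control have no exact size. In bulk RNA, more cells with a transcript and more transcript per cell cannot be told apart.

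SAMD9 also had 1 probe set, with signals of 10.12 in vector, 7.60 in siRNA and 4.70 in control cells. Here the siRNA signal stood near the upper quartile of its array (percentile 76.1), clearly apart from the control signal (percentile 41.7), and the vector signal was highest (percentile 93.8). SAMD9 exceeded control by 5.41 (42.6-fold) in vector and by 2.90 (7.46-fold) in siRNA cells, and vector minus siRNA was 2.51 (5.71-fold). SAMD9 was 0.46 below DDX60 in vector minus control but 1.10 above it in siRNA minus control. The gap of 0.46 was about as large as the spread between probe sets of the same gene (pooled SD 0.44, described below). The order of SAMD9 and DDX60 in vector cells is therefore not settled.

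DDX60L, the neighbour of DDX60, had 1 probe set with signals of 7.48 in vector, 5.28 in siRNA and 4.13 in control cells. The order of the arrays was that of DDX60, since vector cells lay 3.35 (10.2-fold) and siRNA cells 1.15 (2.23-fold) above control, with 2.19 (4.57-fold) between the arms. Each was smaller than the matching DDX60 difference, by 2.53, 0.64 and 1.89 in the same order of comparisons.

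SAMD9L was the member with the smallest differences and the only one with several probe sets. Its brightest probe set had signals of 6.90 in vector, 5.17 in siRNA and 4.61 in control cells, which put vector cells 2.29 (4.89-fold) and siRNA cells 0.56 (1.47-fold) above control, and vector cells 1.73 (3.33-fold) above siRNA cells. Of the other probe sets, the brightest had 5.08, 4.80 and 4.72 in vector, siRNA and control cells, the next 3.91, 3.36 and 3.19, and the dimmest 2.61, 2.48 and 2.44. All 4 probe sets placed the arrays in the same order, but only the brightest passed 2-fold in any comparison, and the control signals of the dimmest pair lay under the lower quartile of that array. Over the 4 probe sets the vector minus control difference was 0.89 ± 0.96, siRNA minus control 0.21 ± 0.24 and vector minus siRNA 0.67 ± 0.73 (SD over n = 4 probe sets of 1 array each). The value for SAMD9L therefore depends on which probes are read, and SAMD9, DDX60 and DDX60L had no other probe set to set beside theirs.

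**Figure D2:**
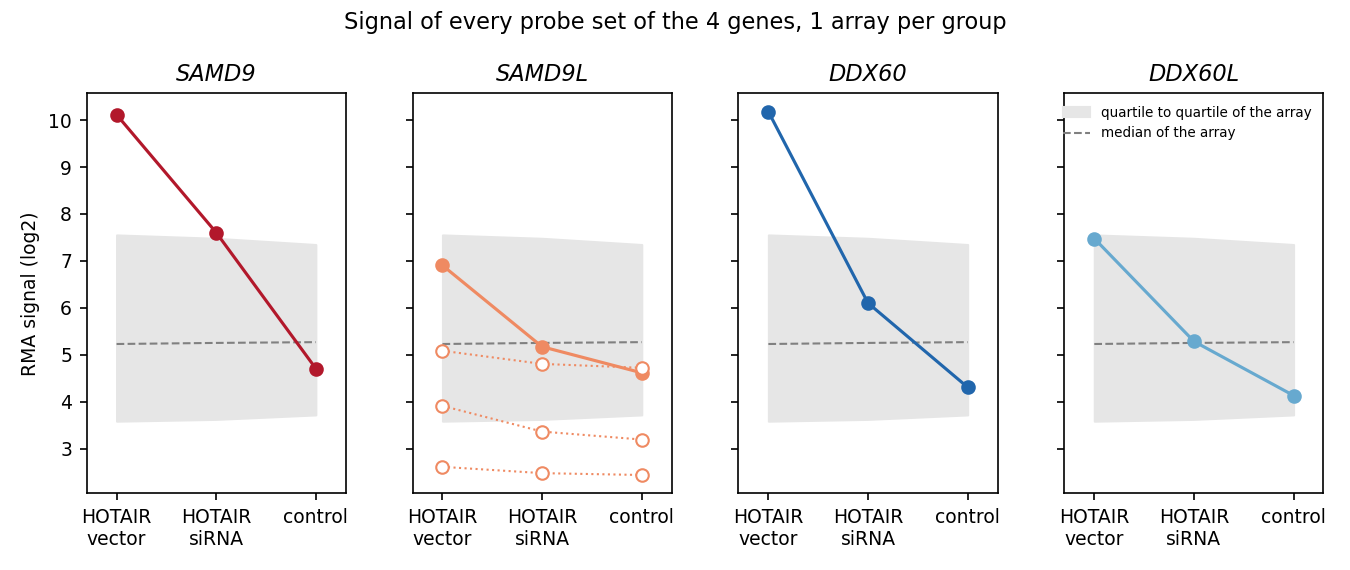
Log2 signal of each of the 7 probe sets on the vector, siRNA and control arrays (1 array per group), with the range between the array's quartiles in grey and its median dashed. Filled points are the probe set that represents the gene, open points the other 3 probe sets of SAMD9L. In every probe set the vector array was highest and the control array lowest.

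The paralogues of each pair were then compared by their differences, not their levels, because signals of unlike probes are not on a shared scale. SAMD9 exceeded SAMD9L by 3.12 (log2) in the difference of vector from control cells, by 2.34 in that of siRNA from control cells and by 0.78 in that between the arms. As a measure of error, probe sets of the same gene differed with a pooled SD of 0.44 where vector was set against control, 0.45 where siRNA was, and 0.26 where the arms were set against each other (8320 genes, each with at least 2 probe sets). This spread covers probes and not cultures. The probe sets of SAMD9L itself were farther apart, with SDs of 0.96 for vector minus control and 0.73 for vector minus siRNA, and closer for siRNA minus control (0.24). The gap between SAMD9 and SAMD9L in vector minus siRNA (0.78) was thus about as large as the spread among the probe sets of SAMD9L. The gap between DDX60 and DDX60L in siRNA minus control (0.64) was likewise not far above the pooled SD.

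The members' counts were read beside those of all genes. With the probe set of highest mean signal representing a gene, 10917 genes reached a mean signal of 5.28, the median over probe sets, and all 4 members were among them. All 4 control signals lay below that level, so the members passed through the arrays on which they were high and had to differ from control. In vector cells all 4 members exceeded control by 2-fold or more, as did 15.2% of the 10917 genes. In siRNA cells 3 of 4 did, all but SAMD9L, against 14.9% of genes. Being 2-fold above control in both arms, which the choice of members favoured, held for 3 of 4 members and 12.7% of genes. Nothing is read from these counts. Set against siRNA cells, vector cells had all 4 members higher by 2-fold or more, as had 1.73% of genes, but the filter fixed part of this count too. With its siRNA and control signals DDX60L could pass only at a vector signal of 6.41, already 1.13 above its siRNA signal, and SAMD9L only at 6.04, or 0.87 above. SAMD9 and DDX60 would have passed at vector signals below their siRNA signals. Without the filter 1.37% of all 18132 genes were 2-fold or more higher in vector than in siRNA cells.

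Counted by probe set without any filter, 4 of 7 passed 2-fold upwards in vector against control cells (9.91% of all 49293 probe sets), 3 of 7 in siRNA against control cells (9.34%) and 4 of 7 in vector against siRNA cells (1.18%). No probe set of the 4 genes was 2-fold lower in any comparison, but few probe sets were. Over the whole array 540, 552 and 517 were lower, in the same order of comparisons, so nothing is read from this. By rank among the 10917 genes, DDX60 was at place 3 and SAMD9 at place 4 for vector minus control, with DDX60L at 72 and SAMD9L at 398. For siRNA minus control the ranks were 65 for SAMD9, 592 for DDX60, 1378 for DDX60L and 2570 for SAMD9L, and for vector minus siRNA they were 6 for DDX60, 24 for SAMD9, 35 for DDX60L and 56 for SAMD9L. The ranks against control describe values that chose the members.

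**Figure D3:**
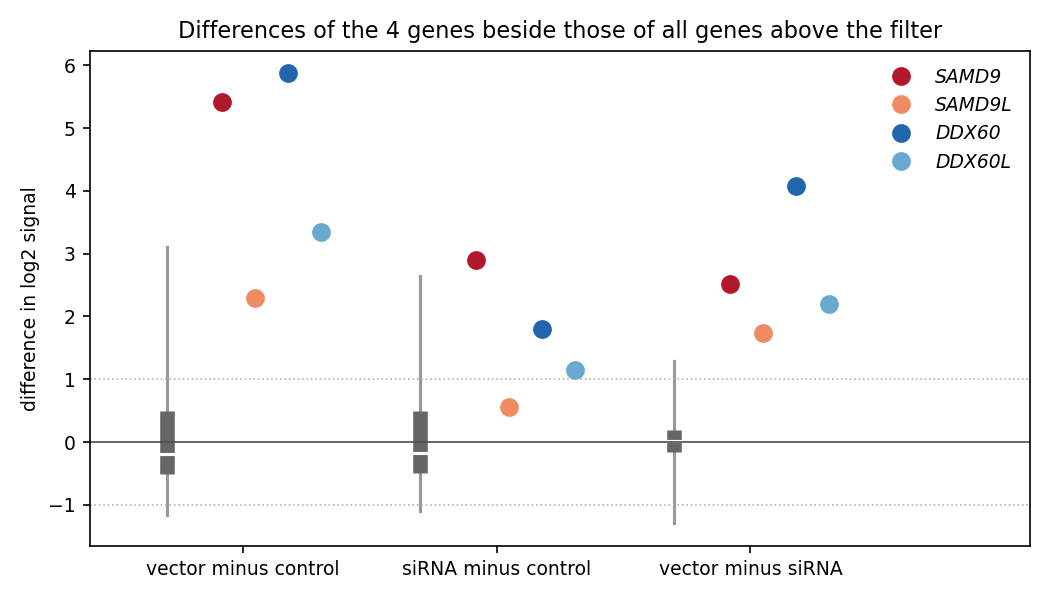
Log2 differences of the 4 genes (coloured points) in the 3 comparisons, beside the spread of 10917 genes above the filter (thin grey line, 1st to 99th percentile; thick line, quartiles; white mark, median). Dotted lines mark 2-fold. SAMD9L in siRNA minus control (0.56) is the only point inside them.

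Interferon-stimulated genes, the class to which the members belong, were higher in vector than in siRNA cells. Of 54 listed genes above the filter other than the members, 34 passed 2-fold upwards, beside 1.73% of all genes above the filter, and 0 downwards. All 54 lay above 0, with a median of 1.39 (log2) against 0.01 for all genes. Without the filter 39 of 63 measured were higher, beside 1.37% of all genes, and 0 lower. The highest were IFI27 (6.93), the RNA-binding antiviral gene IFIT3 (4.28) and IFI6 (4.19), and the lowest TRIM22 (0.24) and the ubiquitin ligase gene TRIM25 (0.25). DDX60 (4.08) was exceeded by 3 of the 54, SAMD9 (2.51) by 14, DDX60L (2.19) by 17 and SAMD9L (1.73) by 20. These lists were written with earlier results of these data known.

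**Figure D4:**
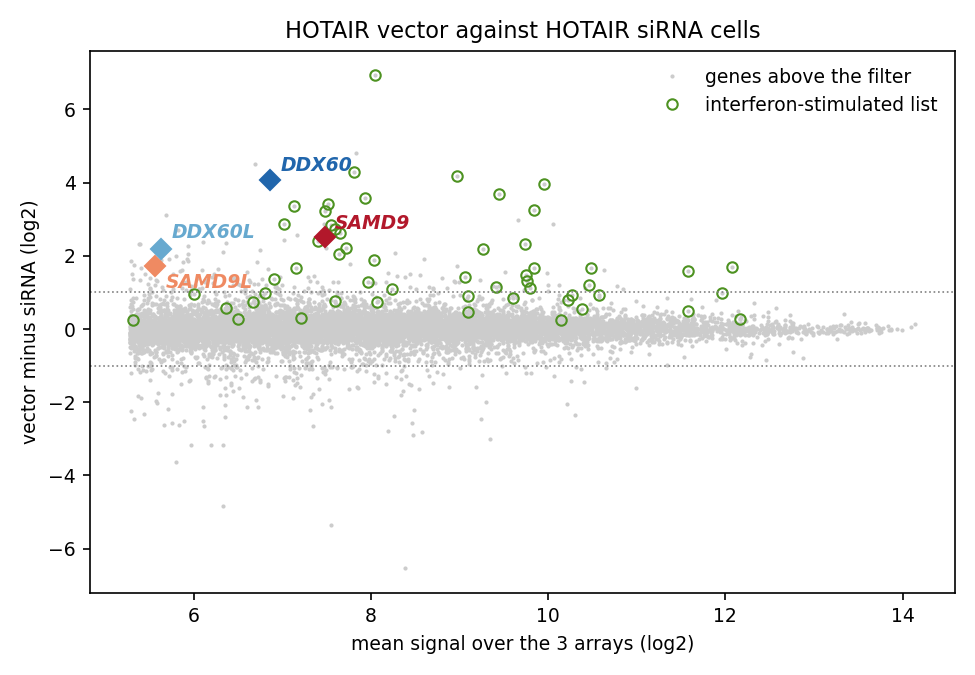
Vector minus siRNA difference (log2) against mean signal over the 3 arrays for 10917 genes above the filter (grey), with 54 interferon-stimulated genes as green circles and the 4 members as diamonds. The members lie between 1.73 and 4.08, within the range of the green circles.

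Against control the interferon-stimulated list gave another picture in siRNA cells. There 6 of the 54 passed 2-fold upwards and 0 downwards, with a median of -0.15, against -0.17 for all genes above the filter. That count is not above the share of all these genes, 14.9%. In vector cells 35 were higher than control, beside 15.2% of all genes above the filter, and 0 lower, with a median of 1.62 against -0.18. The siRNA minus control difference of SAMD9 (2.90) was above that of all 54, DDX60 (1.79) was exceeded by 3, DDX60L (1.15) by 6 and SAMD9L (0.56) by 11. The members were chosen by this difference too, so their places among the 54 support nothing. Both comparisons share the control array, so a high or low control signal moves both alike.

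Genes that act with or upstream of the members were mixed. Counts between the arms in this paragraph stand beside 1.73% of all genes above the filter higher in vector cells. In the RIG-I-like receptor pathway vector cells had 4 of 10 genes above the filter higher than siRNA cells by 2-fold or more and 0 lower. The median was 0.19, and the sensor genes RIGI (2.85), DHX58 (2.22) and IFIH1 (2.05) were highest. The adaptor genes TRAF3 (-0.34) and MAVS (-0.07) were lowest. All 4, the other being EIF2AK2, are also on the interferon-stimulated list, and 0 of the 5 genes that are not on it passed. Against control 5 of the 10 were higher in vector cells and 3 in siRNA cells, beside 15.2% and 14.9% of all genes above the filter. Of 12 genes of interferon signalling above the filter, 2 passed 2-fold with vector cells above siRNA cells, IRF9 (2.18), the DNA-binding part of the complex at the ISRE, and IRF1 (1.28), and 0 were lower, with a median of -0.02. The receptor genes IFNAR1 (0.26), IFNAR2 (-0.29) and IFNGR2 (-0.21) differed little. In that list 2 were higher than control in vector cells and 0 in siRNA cells. Of 8 interferon genes listed only 5 were measured, and these were dim. Signals of IFNB1, IFNE, IFNK, IFNL1 and IFNG lay between 2.40 and 3.83 on all 3 arrays, below the filter. They were looked at after their values had been seen.

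Lists of genes that share a domain or a mechanism with the members were read in the same way. None of 9 SKI2-like helicases and partners differed 2-fold between vector and siRNA cells (median 0.07), with HELQ (0.40), MTREX (0.27) and SKIC3 (0.20) highest and SNRNP200 (-0.09) and POLQ (-0.08) lowest. Of the 9, 4 exceeded control by 2-fold or more in vector cells and 4 in siRNA cells, with medians of 0.92 and 0.97. These counts and those against control that follow stand beside 15.2% of all genes above the filter for vector and 14.9% for siRNA cells. Counts between the arms stand beside 1.73% of all genes above the filter higher in vector cells and 202 of 10917 lower. Nothing is therefore read from the lists in which none differed. None of 32 other DEAD-box genes differed 2-fold between the arms (median 0.05), from DDX49 (0.47), DDX52 (0.45) and DDX51 (0.38) to DDX3X (-0.27) and DDX6 (-0.39), and 4 were higher than control in vector and 3 in siRNA cells, with 1 lower in each. Of 14 genes with a sterile alpha motif, 1 was higher in vector than in siRNA cells, the dNTP hydrolase gene SAMHD1 (1.36), which is also on the interferon-stimulated list, followed by SAMD8 (0.80) and SAMD12 (0.47), while SAMD5 (-0.91) and SAMD10 (-0.16) were lowest and the median was 0.10. Against control 3 of the 14 were higher in vector cells and 3 in siRNA cells, and 1 was lower in siRNA cells. Of 13 genes of antiviral RNA decay and translation control, 5 were higher by 2-fold or more in vector than in siRNA cells and 0 lower (median 0.78), led by IFIT1 (3.24), the schlafen gene SLFN5 (1.99) and IFIT5 (1.67), with ZC3H12A (-0.25) and ZC3HAV1 (0.23) lowest. Of these 13 genes 6 are also on the interferon-stimulated list, 3 of them among the higher ones, and of the 7 others 2 were higher, SLFN5 and PNPT1. In that list 6 were higher than control in vector and 3 in siRNA cells. Among the 7 epithelial markers none differed 2-fold between the arms, from SFN (0.27), EPCAM (-0.07) and CDH1 (-0.17) to the keratin genes KRT5 (-0.75) and KRT14 (-0.79). KRT14 was 2-fold lower than control in vector cells (-1.16).

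**Figure D5:**
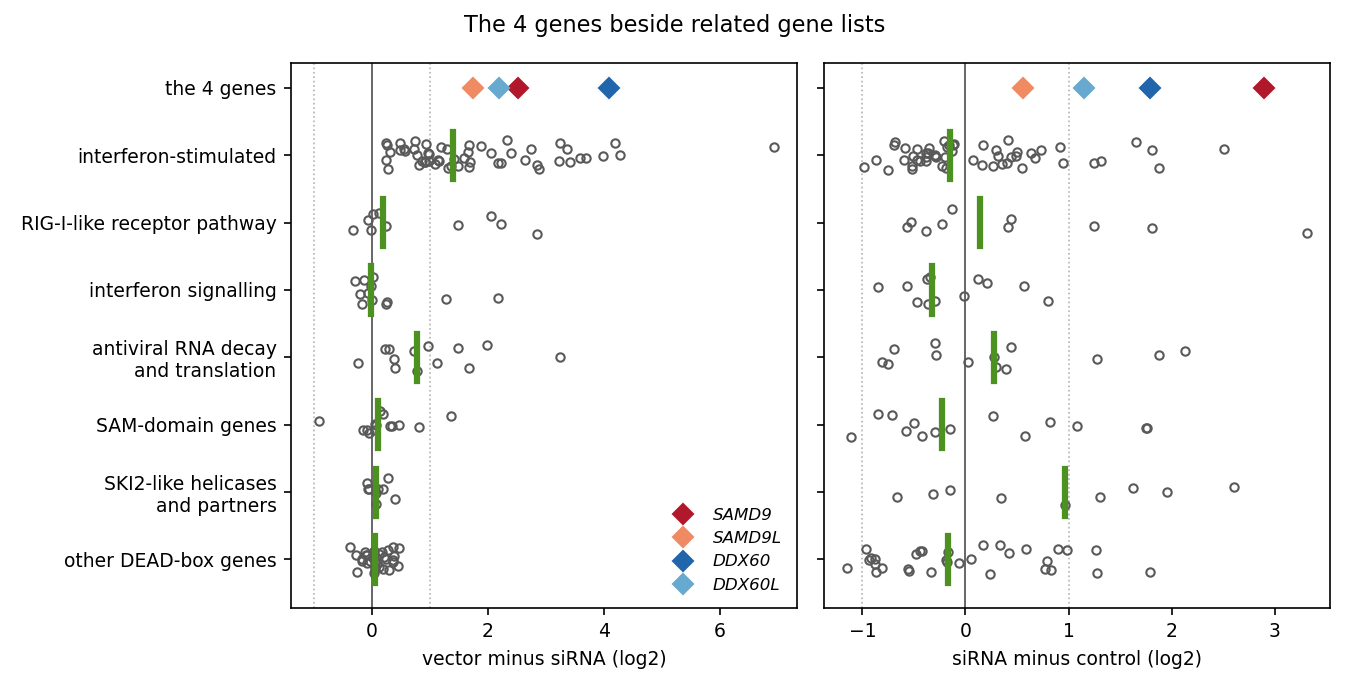
Vector minus siRNA (left) and siRNA minus control (right) differences in log2 for the 4 members (diamonds) and for the genes above the filter in 7 related lists (circles, with the list median in green). Dotted lines mark 2-fold. On the left the DEAD-box and SKI2-like genes stay within 2-fold, as do most genes above the filter, of which 1.73% were higher. All 4 members lie beyond it, a count that the filter fixed in part.

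The genes nearest to each member in the plane of its differences from control, over the 3 arrays, were found by Euclidean distance. IFI44 was nearest to both DDX60 (distance 0.75) and SAMD9 (0.78), with 6.09 for vector minus control and 2.51 for siRNA minus control. For DDX60 the next were RIGI (1.22), the cornified envelope gene SCEL (1.36), IRAG2 (1.55) and ZBTB41 (1.59). For SAMD9 they were the transporter gene SLCO1B3 (1.07), SCEL (1.08), the mitotic kinase gene TTK (1.25) and the deubiquitinase gene USP16 (1.30), and TTK and USP16 differed between the arms by only 0.75 and 0.70. DDX60L lay closest to IFIH1 (0.11) and IFIT2 (0.24), followed by ANXA3 (0.31), ZNF292 (0.33) and XK (0.33). SAMD9L lay closest to DTX3L (0.08), ANKRD22 (0.13) and CPVL (0.22), then the kinase gene DAPK1 (0.27) and INHBE (0.30). With 3 arrays the plane holds 2 values per gene, so likeness here is coarse.

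The 3 nearest measured genes on each side of each pair, in RefSeq order, were examined last. Beside SAMD9L lies VPS50, a gene of endosome recycling, beyond HEPACAM2. VPS50 had signals of 7.23 in vector, 6.09 in siRNA and 3.59 in control cells, and so was higher than control by 3.65 in vector and 2.50 in siRNA cells and higher by 1.14 in vector than in siRNA cells. On the SAMD9 side the cell cycle kinase gene CDK6 had 9.50 in vector, 9.43 in siRNA and 7.96 in control cells, which is 1.54 and 1.47 above control and 0.07 between the arms. RBM48, farther out, was 0.74 and 0.50 above control in vector and siRNA cells. ERVW-1, HEPACAM2 and CALCR lay below the filter.

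Around DDX60 and DDX60L no neighbour was 2-fold higher in vector than in siRNA cells. ANXA10, next to DDX60, had 4.79 in vector, 6.97 in siRNA and 5.36 in control cells, a vector minus siRNA difference of -2.18, opposite in sign to that of DDX60. PALLD, CBR4 and SH3RF1, on the DDX60L side, differed from control by 0.38, 0.29 and 0.29 in vector and by 0.48, 0.69 and 0.08 in siRNA cells, and SPOCK3 and TLL1 lay below the filter. Over both pairs, 1 of 12 neighbours (VPS50) was higher and 1 (ANXA10) lower by 2-fold or more in vector than in siRNA cells. Of all 18132 genes measured, 248 were higher and 264 lower. A 2-fold difference could be missed in the neighbours below the filter, so no share is read from the 12.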

How the data were processed

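Total RNA of 3 samples was labelled with biotin by a 3' IVT kit and hybridised to arrays, per the labels' protocols. Per the submitters' processing notes, RMA was used, and the authors deposited its probe set signals, whose log2 scale was read from their range. Its version, background step and chip definition were not stated in the sources used here. RMA compresses differences near background.

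Of 49293 probe sets, 44988 had 1 gene symbol in the platform annotation, 1832 had several and 2473 were not listed. Groups came from the treatment labels. Differences were taken between single arrays, so depth is that of 1 array per group. A gene was its probe set of highest mean, kept at a mean of at least 5.28. Named genes were the members, the 5 nearest genes to each, 3 neighbours on each side of each pair, and the 3 highest and 2 lowest kept genes of each related list by vector minus siRNA. Members and lists (205 genes, 189 measured, 138 kept) were chosen with earlier results of these data known, and lists overlap. Promoters came from RefSeq (4 of 4 matched), and protein sequences were not used here. A second planned motif is not reported here. The gene summary, the 2-fold count and the cyclic loess used below were tested on simulated arrays, and the other steps were not. Python 3.11.15, numpy 2.4.6, pandas 2.3.3, statsmodels 0.14.6 and matplotlib 3.10.9 were used.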

Additional observations from a re-analysis of the deposited data

How the results depend on the processing

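Alternatives were other thresholds, other filters, the mean over probe sets, repeated quantile normalization, cyclic loess (span 0.4, 3 cycles), leaving out probe sets ending in _x_at or _s_at, and centring on the median. Of 60 recomputed member differences 58 kept their side of 2-fold and moved by less than the pooled SD between probe sets, and 0 changed sign. The other pair belonged to SAMD9L with the mean over probe sets, at 0.89 for vector minus control and 0.67 for vector minus siRNA, where 3 dimmer probe sets enter the mean. Part of the 60 could not move. SAMD9, DDX60 and DDX60L had 1 probe set each, so the mean and the left-out endings returned the same value. Leaving out those endings also kept the probe set that represents SAMD9L. With the filter at the 75th percentile only SAMD9 was kept, so the count of members at least 2-fold higher was 1 in each comparison. At 4-fold, 1 member (SAMD9) passed for siRNA minus control. The share of all genes higher was 22.9%, 22.8% and 4.74% at 1.5-fold and 5.24%, 3.76% and 0.385% at 4-fold, for vector minus control, siRNA minus control and vector minus siRNA. Repeated quantile normalization gave 1444 higher and 518 lower genes for vector minus control, against 1662 and 224, and 1472 and 408 for siRNA minus control, against 1623 and 202. The counts moved the other way with cyclic loess, to 1902 higher and 118 lower for vector minus control and 1973 and 67 for siRNA minus control, and with median centring, to 1978 and 105 and to 1955 and 72. Cyclic loess moved the median of all genes from -0.18 to -0.02 for vector minus control and from -0.17 to 0.02 for siRNA minus control. The 3 arrays and dim control signals limit every size given.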

Other observations

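Over the genes above the filter other than the members, vector minus siRNA was counted by the ISRE cores in their RefSeq promoter windows. At least 1 core was found for 326 genes, of which 27 (8.28%) were 2-fold or more higher in vector cells and 6 lower, and 2 or more cores for 34 genes, of which 11 (32.4%) were higher and 0 lower. Among 8735 genes without a core 120 (1.37%) were higher and 141 lower. For siRNA minus control the shares higher were 18.7% with a core, 11.8% with 2 or more and 15.1% without. Many genes have several windows, and no test was made.

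TBK1, the kinase that phosphorylates IRF3, had signals of 9.31 in vector, 9.19 in siRNA and 5.88 in control cells, so it lay 3.43 and 3.31 above control (log2) and 0.12 between the arms. SKIC3, a partner of the SKI2 helicase, lay 2.80 and 2.60 above control in vector and siRNA cells. TBK1 and SKIC3 were picked after their values had been seen. In both arms 3 of the 10 RIG-I-like receptor pathway genes above the filter exceeded control 2-fold. So did 4 of the 9 SKI2-like helicases and partners, beside 12.7% of all genes above the filter. In the same lists IRF3 (-0.59 in vector and -0.57 in siRNA cells) and SKIC2 (-0.56 and -0.66) lay below control.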
